A study of Homo sapiens with 6 samples.

Results

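PLCG1 and 8 further genes of phosphoinositide-specific phospholipase C enzymes (PLCG2, PLCB1, PLCB2, PLCB3, PLCB4, PLCD1 and PLCD3) and of the related protein PLCL2 were followed in EoL-1 cells, an established human cell line that derives from eosinophilic leukaemia. They were taken by gene symbol from a list of isozymes, and the estimated reads of all transcripts of a gene were added up. The 9 genes stood among 35052 genes with a matched transcript, of which 12954 held enough reads to be tested, 7 of the 9 included. PLCG1 was chosen by its low p in the comparison of the genotypes, and the other 8 for belonging to its family. The PLCG1 difference between the genotypes is therefore given as a description and supports nothing. The cells came as 3 libraries labelled ATF3/JUN double knockout and 3 labelled JUN knockout, so both groups lacked JUN by their labels and differed in the edit of ATF3. The treatment note in the labels names an ATF3 knockout alone, for every sample, which conflicts with these genotypes. The groups follow the genotype labels. JUN and ATF3 are basic leucine zipper transcription factors. Editing was done with CRISPR/Cas9, and poly(A) RNA was sequenced after a stranded Illumina mRNA preparation. No unedited library was analysed here, and the guides and edited alleles were not given in the sources used here. Each library of a group carries its own clone code in the name of its file, but no label states separate clones or cultures. The p-values thus measure only the spread between these libraries.

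Phospholipase C enzymes cut the membrane lipid phosphatidylinositol bisphosphate into inositol trisphosphate, which releases calcium from the endoplasmic reticulum, and diacylglycerol, which recruits protein kinase C and other effectors to the membrane. The gamma isozymes are switched on by tyrosine kinases and their adaptors, the beta isozymes by heterotrimeric G proteins, and the delta isozymes are sensitive to calcium itself. PLCG1 is widely expressed, PLCG2 is the gamma isozyme best known from B cells and myeloid cells, PLCB2 is typical of blood cells, and PLCL2 belongs to the PLC-like proteins, which lack catalytic activity.

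The libraries held 26146998, 27081713 and 29567970 estimated reads in the double knockout and 27489269, 29032697 and 27344031 in the JUN knockout. Across genes, log2 CPM (the estimated count of a gene scaled to a common library total, after TMM scaling) correlated between libraries at a Spearman rho of 0.979 to 0.994. By this correlation, double knockout replicate 3 was closer to JUN knockout replicates 2 and 3 than to either library of its own group, and JUN knockout replicate 1 was closer to double knockout replicates 1 and 2 than to those of its own. ATF3 itself was at 13.1, 10.0 and 7.63 CPM in the double knockout, against 20.2, 13.7 and 8.89 CPM in the JUN knockout. These ranges overlapped, while all 3 same-numbered pairs had less ATF3 in the double knockout (log2 differences −0.63, −0.44 and −0.22). EdgeR did not call it without the pairing (adjusted p = 0.931) or with it (adjusted p = 0.394). JUN was at 13.8, 16.6 and 25.7 CPM in the double knockout, against 13.2, 27.2 and 24.6 CPM in the JUN knockout. An mRNA level does not show whether an edit disrupted the protein. Of 13 eosinophil markers, 5 had 0 reads in every library (EPX, PRG3, CLC, IL5RA and GATA1). In at least 1 library, 3 reached 1 CPM (RNASE2, RNASE3 and ADGRE1), and 10 of the 13 stayed under that level in every library. The eosinophil markers summed to 63.6 to 106 CPM in the double knockout and to 38.0 to 112 CPM in the JUN knockout. Of 12 markers of other blood cells, 5 had 0 reads in every library (CD3E, HBB, ELANE, PPBP and TPSAB1). In all, 10 stayed under 1 CPM in every library and 2 reached it in at least 1. The list summed to 71.9 to 142 CPM in the double knockout and 71.1 to 96.1 CPM in the JUN knockout. These sums, carried mostly by the 2 markers that reached 1 CPM, do not show whether cells of other lineages were present.

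The gene PLCG1 (ENSG00000124181) spans bases 41136960 to 41196801 of chromosome 20 on the plus strand of GRCh38. It held 572, 655 and 842 estimated reads in the double knockout, against 1270, 1444 and 1137 in the JUN knockout. After scaling, these were 23.0, 24.8 and 29.8 CPM in the double knockout and 46.7, 51.9 and 43.8 CPM in the JUN knockout. The groups did not overlap: the highest double knockout library, replicate 3, stayed below the lowest JUN knockout library, also replicate 3. The means were 25.9 ± 3.50 CPM in the double knockout and 47.5 ± 4.15 CPM in the JUN knockout (SD, n = 3 each), so the double knockout stood at 54.5% of the JUN knockout level. The log2 fold change was −0.88 (SE 0.12), and within same-numbered libraries the log2 differences were −1.02, −1.07 and −0.56. In the double knockout, less PLCG1 RNA per cell and fewer cells with PLCG1 RNA cannot be told apart in bulk libraries.

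Across all genes, edgeR's quasi-likelihood test with Benjamini-Hochberg adjustment called 0 of 12954 (0%), PLCG1 among those not called (adjusted p = 0.466). At an unadjusted p under 0.05 it listed 753 genes (5.81%). DESeq2 called 71 of 12949 genes (0.548%), and limma-voom called 4 (0.0309%). DESeq2 called PLCG1 (adjusted p = 2.89e-06) and limma-voom did not. PLCG1 had the fifth lowest edgeR p of all genes, which is what chose it. Of the 12954 genes, 769 (5.94%) had CPM ranges that did not overlap and were lower in the double knockout, and 98 (0.757%) had a log2 fold change as low as that of PLCG1 or lower. Among the 8945 genes with a mean of at least 10 CPM, 10 (0.112%) did.

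**Figure D1:**
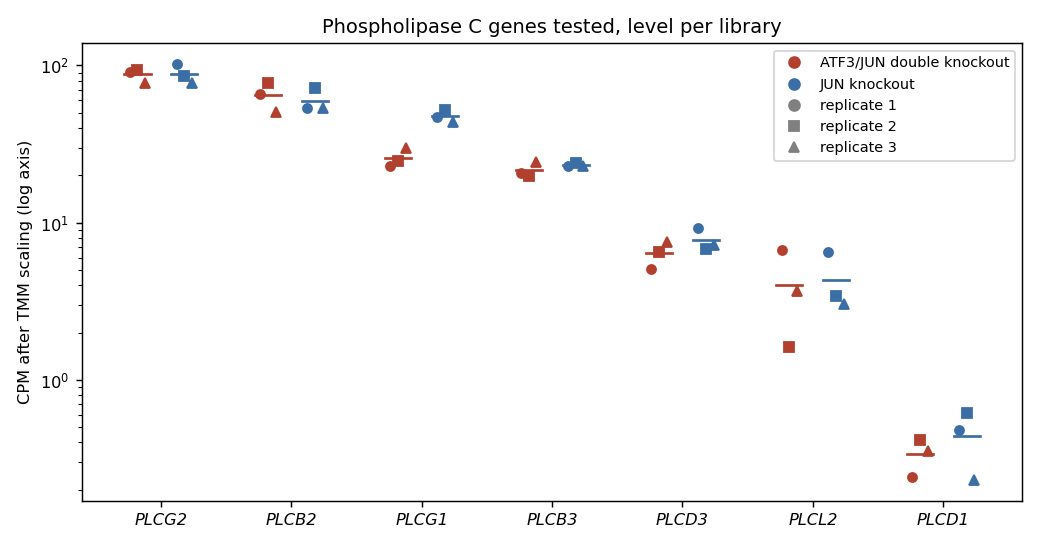
CPM (TMM-scaled, log axis) of the 7 tested phospholipase C genes in each library, double knockout to the left of JUN knockout in each pair, points for libraries and a bar for the mean. The PLCG1 libraries lie at 23.0 to 29.8 CPM in the double knockout and at 43.8 to 51.9 CPM in the JUN knockout, and in the other 6 genes the 2 groups overlap.

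The transcripts of PLCG1 were then set apart by their annotated class. GENCODE lists 22 in the quantified set: 3 coding, 8 with a retained intron, 4 marked for nonsense-mediated decay (NMD) and 7 other processed transcripts. Over the 6 libraries the gene had 5920 estimated reads, of which 5296 fell on coding transcripts, 431 on retained-intron transcripts, 153 on NMD transcripts and 40.7 on the rest. PLCG1-201, the main coding transcript, took 86.8% of them. It was at 3.58, 4.03 and 4.32 TPM (abundance scaled for transcript length and library total) in the double knockout, against 7.27, 7.52 and 6.09 TPM in the JUN knockout, with no overlap. PLCG1-202, the other coding transcript with reads in every library, took 2.66% and held 15.3, 28.0 and 12.2 estimated reads in the double knockout, against 29.2, 37.8 and 35.0 in the JUN knockout. These 2 transcripts differ at the start of an exon, where PLCG1-201 (exon 32 of 33, from 41174124) carries 3 bases that PLCG1-202 (exon 31 of 32, from 41174127) lacks. The junction is shown because reads across these few bases, and the different ends of the transcripts, are what separate them. The 3 bases are in capitals.
PLCG1-201: attttccctgccaagCAGgagaatggtgac
PLCG1-202: attttccctgccaaggagaatggtgac

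Of the 8 retained-intron transcripts, 2 hold a whole intron of PLCG1-201 and 6 hold only parts of introns. The parts can be short: PLCG1-204 holds 10 bases of intron 26 and 1 of intron 32, and PLCG1-205 holds 21 bases of intron 20. The longest part is 641 bases of intron 25, in PLCG1-209. PLCG1-212 keeps intron 8 (chromosome 20, 41162993 to 41163202, 210 bases) and PLCG1-206 keeps intron 9 (41163276 to 41163377, 102 bases), with introns numbered along PLCG1-201. Both sequences are given on the plus strand of GRCh38, with the intron in capitals and flanking exon bases in lower case, since reads inside the capitals are those that a spliced PLCG1 mRNA cannot supply. The first window is chr20:41162973-41163222 and the second chr20:41163256-41163397, and both introns begin with GT and end with AG.
Intron 8 in PLCG1-212: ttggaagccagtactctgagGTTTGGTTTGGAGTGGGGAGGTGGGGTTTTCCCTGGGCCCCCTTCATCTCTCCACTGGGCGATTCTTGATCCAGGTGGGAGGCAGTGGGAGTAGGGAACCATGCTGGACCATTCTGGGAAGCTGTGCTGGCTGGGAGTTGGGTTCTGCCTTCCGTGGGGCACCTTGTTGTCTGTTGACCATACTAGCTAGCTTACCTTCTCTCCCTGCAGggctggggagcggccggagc
Intron 9 in PLCG1-206: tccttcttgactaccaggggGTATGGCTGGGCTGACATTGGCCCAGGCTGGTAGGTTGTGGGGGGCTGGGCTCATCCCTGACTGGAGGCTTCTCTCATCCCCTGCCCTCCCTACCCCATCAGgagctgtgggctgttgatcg

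PLCG1-212 held 5.7, 17.0 and 11.5 estimated reads in the double knockout, against 35.2, 29.7 and 26.2 in the JUN knockout. PLCG1-206 held 5.7, 2.0 and 8.9 in the double knockout, against 13.0, 9.3 and 11.1 in the JUN knockout. PLCG1-208, which holds parts of introns 20 and 25, had 3.0, 7.5 and 7.7 in the double knockout and 24.9, 23.6 and 32.3 in the JUN knockout. These 3 were lower in every double knockout library than in any JUN knockout library, as was the whole gene, and they are named for that. PLCG1-206 was separated only narrowly, at 8.9 against 9.3 reads. The gene was chosen on this contrast, and the share of all transcripts without overlap was not counted, so these 3 support nothing further. The other 5 retained-intron transcripts overlapped between the groups. The one with the most reads, PLCG1-204, had 9.3, 0 and 22.6 in the double knockout and 10.0, 31.1 and 11.8 in the JUN knockout. An estimated read of such a transcript can also come from an exon that it shares with PLCG1-201, because Salmon divides reads that fit several transcripts.

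The coding transcripts together stood at 21.4, 23.6 and 26.5 CPM in the double knockout, against 40.5, 46.3 and 38.6 CPM in the JUN knockout. The retained-intron transcripts stood at 1.40, 1.15 and 2.16 CPM in the double knockout, against 3.88, 4.13 and 3.25 CPM in the JUN knockout. Neither class overlapped between the groups. The double knockout mean was 56.9% of the JUN knockout mean for coding and 41.8% for retained-intron transcripts. NMD transcripts, at 0.180, 0 and 1.00 CPM in the double knockout and 1.87, 0.920 and 1.67 CPM in the JUN knockout, did overlap.

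As a share of the PLCG1 reads, retained-intron transcripts made up 6.07%, 4.63% and 7.25% in the double knockout, against 8.31%, 7.94% and 7.43% in the JUN knockout. The shares did not overlap, though double knockout replicate 3 lay just below JUN knockout replicate 3. The means were 5.98% ± 1.31 in the double knockout and 7.90% ± 0.439 in the JUN knockout (SD, n = 3 each), a difference of −1.91 percentage points. With every class other than coding added, the shares were 6.85%, 5.14% and 11.1% in the double knockout and 13.2%, 10.8% and 11.8% in the JUN knockout, which overlapped. As a share of TPM, retained-intron transcripts also overlapped, at 43.6%, 31.3% and 41.6% in the double knockout and 41.4%, 40.5% and 39.6% in the JUN knockout, with double knockout replicate 1 the highest of the 6 libraries.

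A lower retained-intron share of reads in the double knockout was common. Of 4219 genes with a mean of at least 20 retained-intron reads, 1007 (23.9%) had shares that did not overlap and were lower in the double knockout, and the median gene differed by −1.02 percentage points. The mean retained-intron share of PLCG1 over the 6 libraries was 6.94%, above that of 42.3% of these genes and below the median of 9.09%.

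**Figure D2:**
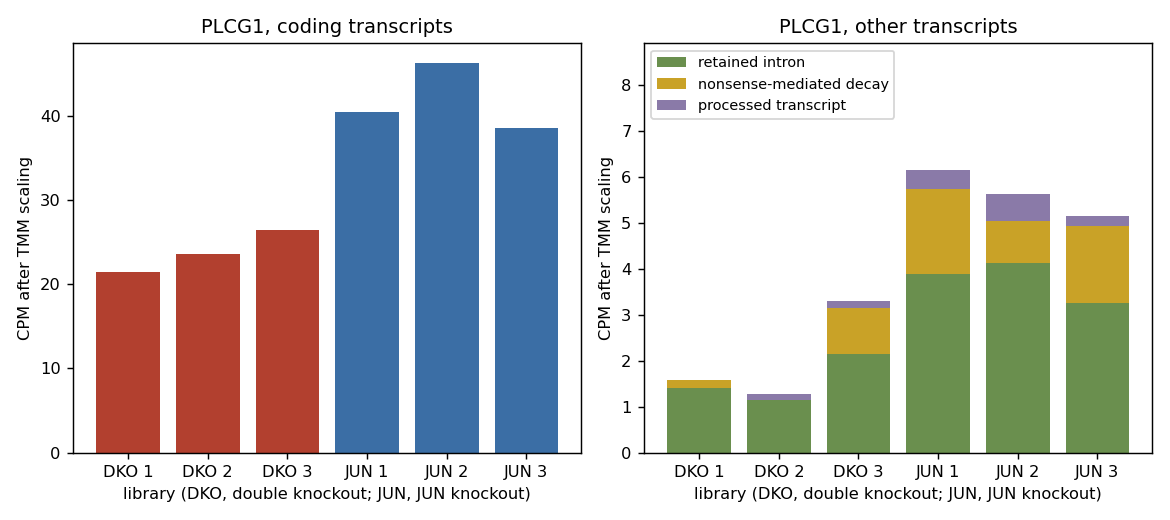
PLCG1 CPM (TMM-scaled), 1 bar per library, double knockout (DKO) to the left of JUN knockout (JUN), on coding transcripts in the left panel and, stacked, on retained-intron, NMD and processed transcripts in the right panel. Coding transcripts lie at 21.4 to 26.5 CPM in the double knockout and 38.6 to 46.3 CPM in the JUN knockout, retained-intron transcripts at 1.15 to 2.16 CPM in the double knockout and 3.25 to 4.13 CPM in the JUN knockout.

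In the other gamma isozyme the groups overlapped. PLCG2 (chromosome 16, 81739097 to 81962693, plus strand) was at 91.0, 94.0 and 77.7 CPM in the double knockout, against 102, 85.0 and 77.6 CPM in the JUN knockout. The libraries interleaved, and replicate 3 was the lowest of both groups. The log2 fold change was −0.01 (SE 0.13, edgeR adjusted p = 0.996). On coding transcripts per length, PLCG2 stood at 5.47, 4.68 and 3.37 times the TPM of PLCG1 in the double knockout, against 2.83, 1.95 and 2.08 times in the JUN knockout. This ratio used the PLCG1 values that chose the gene, and it did not overlap between the groups.

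Of the beta isozymes, which G protein subunits activate, PLCB2 and PLCB3 were expressed. PLCB2 (minus strand of chromosome 15, 40278176 to 40307935) stood at 66.2, 77.5 and 50.4 CPM in the double knockout, against 53.6, 71.6 and 53.6 CPM in the JUN knockout. Both groups had their highest value in replicate 2 and overlapped over most of their range (log2 fold change 0.12, SE 0.19, edgeR adjusted p = 0.974). PLCB3 (chromosome 11, 64251523 to 64269150, plus strand) was at 20.8, 19.7 and 24.2 CPM in the double knockout, against 22.9, 23.8 and 22.9 CPM in the JUN knockout. The double knockout libraries lay on both sides of the JUN knockout ones (log2 fold change −0.11, SE 0.11, edgeR adjusted p = 0.962). PLCB4 (chromosome 20, 9068763 to 9481242) had 3, 3 and 7 estimated reads in the double knockout and 4, 3 and 10 in the JUN knockout. PLCB1 (chromosome 20, 8077251 to 8968360) had 1, 0 and 0 in the double knockout and 0, 1 and 0 in the JUN knockout. These reads were too few for a test of either gene.

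The delta isozymes and PLCL2 were low. PLCD3 (minus strand of chromosome 17, 45108967 to 45133354) stood at 5.07, 6.48 and 7.56 CPM in the double knockout, against 9.26, 6.80 and 7.16 CPM in the JUN knockout. The groups overlapped through double knockout replicate 3 (log2 fold change −0.28, SE 0.21, edgeR adjusted p = 0.941). PLCD1 (chromosome 3, 38007496 to 38029762, minus strand) had 6, 11 and 10 estimated reads in the double knockout and 13, 17 and 6 in the JUN knockout, so counting error alone was large (log2 fold change −0.38, SE 0.43, edgeR adjusted p = 0.966). PLCL2 (chromosome 3, 16802651 to 17090594, plus strand) was at 6.71, 1.63 and 3.68 CPM in the double knockout and 6.50, 3.42 and 3.04 CPM in the JUN knockout. Its replicate 1 was the highest library of both groups, and the spread within each group exceeded the difference between them (log2 fold change −0.11, SE 0.52, edgeR adjusted p = 0.989).

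Of the 7 tested members, 1 had a log2 fold change above 0 and 6 below, with a median of −0.11. Over all tested genes 50.7% were above 0 and the median was 0.0032. The 6 include PLCG1, as well as PLCG2, PLCD1 and PLCL2, whose directions turned under other settings. That of PLCB2, the 1 above 0, turned too, so the count shows no direction of the family. CPM ranges did not overlap in 1 of the 7, PLCG1, the gene chosen on this contrast, against 12.3% of all tested genes. Among 9 further phospholipase C genes, 3 were tested and 6 were not. PLCXD2, a protein with an X domain of the enzyme family, was at 0.885, 0.910 and 1.27 CPM in the double knockout, against 2.13, 1.69 and 1.62 CPM in the JUN knockout. These low values did not overlap, and edgeR did not call the gene (log2 fold change −0.82, SE 0.26, adjusted p = 0.789). PLCE1, the isozyme with Ras-binding domains, was at 0.965, 0.644 and 1.10 CPM in the double knockout and 1.10, 1.22 and 1.00 CPM in the JUN knockout (log2 fold change −0.30, edgeR adjusted p = 0.954). PLCXD1 had a log2 fold change of −0.02 (edgeR adjusted p = 0.995). PLCZ1, the sperm isozyme, and PLCXD3 had 0 reads in every library.

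**Figure D3:**
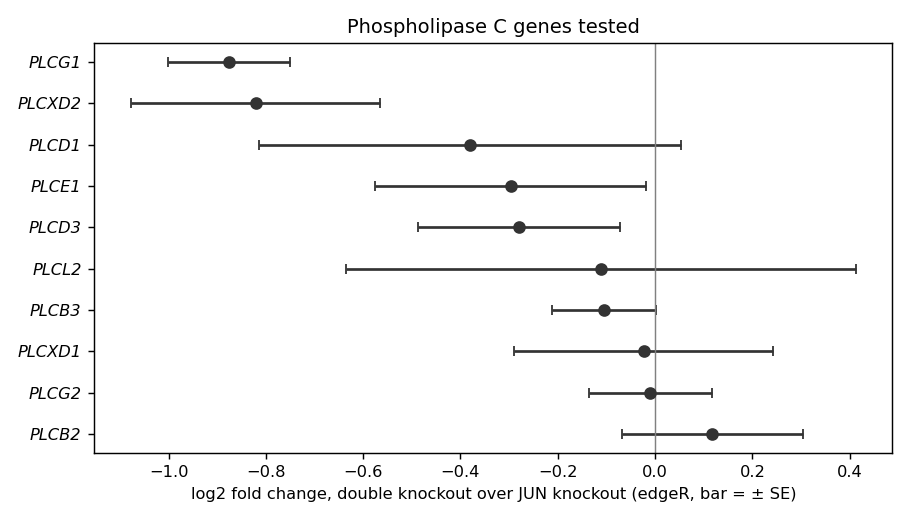
The log2 fold change (double knockout over JUN knockout) of the tested phospholipase C genes, points for edgeR's estimate and bars for 1 SE either side. PLCG1 (−0.88) and PLCXD2 (−0.82) lie farthest from 0, and PLCG2 (−0.01) is next to it.

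Levels of the members were compared with each other per length, as TPM summed over the transcripts of a gene. Averaged over the 6 libraries, PLCB2 stood at 29.9 ± 5.94 TPM, PLCG2 at 28.5 ± 6.49 and PLCG1 at 13.4 ± 6.21 (SD, n = 6). PLCB3 followed at 5.87 ± 1.36 TPM, PLCD3 at 4.33 ± 1.47, PLCL2 at 0.951 ± 0.496 and PLCD1 at 0.312 ± 0.156, while PLCB4 and PLCB1 averaged 0.0322 and 0.00732 TPM. Between neighbours in this order, the ranges over the 6 libraries stayed apart at 2 places, PLCD3 above PLCL2 and PLCD1 above PLCB4. The total for PLCG1 was 6.92, 7.71 and 10.3 TPM in the double knockout and 21.8, 19.5 and 14.4 TPM in the JUN knockout.

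Short non-coding transcripts weigh heavily in such sums, since a few reads on a short transcript give a high TPM. On coding transcripts alone the order was PLCG2 at 17.2 ± 3.33 TPM, PLCB2 at 6.66 ± 1.66, PLCG1 at 5.59 ± 1.75 and PLCB3 at 4.85 ± 0.317 (SD, n = 6). PLCG2 was then above PLCB2 in ranges that did not overlap, and PLCB3 was above PLCD3. This order of PLCB2, PLCG1 and PLCB3 held as a whole in neither group alone. PLCG1 came below PLCB3 in the double knockout and above PLCB2 in the JUN knockout. In the double knockout PLCB2 averaged 7.52 TPM, PLCB3 4.71 and PLCG1 4.06, and in the JUN knockout PLCG1 averaged 7.11 TPM, PLCB2 5.81 and PLCB3 4.99. PLCG2 had 20.0, 19.5 and 14.8 coding TPM in the double knockout and 21.0, 15.0 and 13.0 in the JUN knockout. PLCG1 had 3.66, 4.16 and 4.38 coding TPM in the double knockout and 7.41, 7.68 and 6.25 in the JUN knockout. It made up 9.43%, 10.8% and 13.9% of the coding TPM of the 9 genes in the double knockout, against 17.1%, 21.2% and 19.8% in the JUN knockout. PLCG2 was the largest contributor to that sum in all 6 libraries, with 51.5%, 50.4% and 47.0% in the double knockout and 48.4%, 41.4% and 41.3% in the JUN knockout.

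The retained-intron share differed widely among the isozymes. In PLCB2 it was 46.8%, 46.8% and 47.7% in the double knockout, against 52.1%, 55.7% and 57.5% in the JUN knockout. These shares did not overlap (means 47.1% ± 0.55 in the double knockout and 55.1% ± 2.75 in the JUN knockout, difference −7.98 percentage points). PLCB2-207, a retained-intron transcript of 4643 bases, alone took 31.0% of the reads of the gene. It spans nearly the same bases as the coding PLCB2-201, of 4627 bases, so its estimated reads can also come from shared exons. Of the 4219 genes, 91.7% had a lower mean share than the 51.1% of PLCB2.

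In PLCG2 the share was 3.63%, 6.57% and 2.70% in the double knockout and 8.31%, 5.60% and 6.65% in the JUN knockout, with overlap. In PLCD3 it was 2.60%, 9.49% and 5.83% in the double knockout and 3.23%, 3.05% and 4.88% in the JUN knockout, again with overlap. PLCB3-203, the retained-intron transcript of PLCB3, had 0 reads in every double knockout library and 16.5, 11.5 and 13.8 in the JUN knockout. Its share was 0% in the double knockout and 2.65%, 1.73% and 2.32% in the JUN knockout, on too few reads for the 4219 genes. Shares lower in the double knockout without overlap, as in PLCG1 and PLCB2, were found in 23.9% of those 4219 genes.

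**Figure D4:**
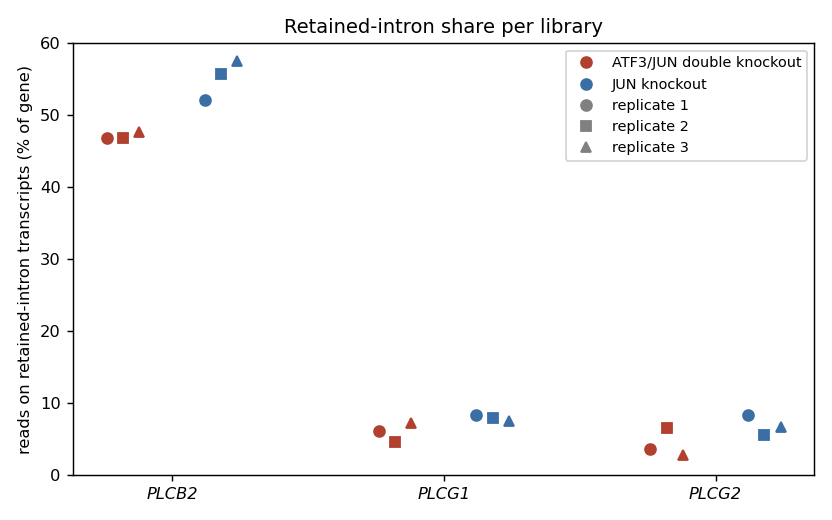
Share of a gene's estimated reads (percent) on transcripts annotated as retained intron in PLCB2, PLCG1 and PLCG2, 1 point per library, double knockout to the left of JUN knockout. PLCB2 stands at 46.8% to 47.7% in the double knockout and 52.1% to 57.5% in the JUN knockout, and PLCG1 at 4.63% to 7.25% in the double knockout and 7.43% to 8.31% in the JUN knockout.

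The 5 lists of genes around the enzymes were read from the same test, ordered from upstream to downstream. Of 124 listed genes, 115 were tested, and edgeR and DESeq2 each called 0 of them. At an unadjusted p under 0.05 edgeR listed 7, against 5.81% of all tested genes. Log2 fold changes were above 0 in 66 of the 115 (57.4%), with a median of 0.03. CPM ranges did not overlap in 5 that were lower and 12 that were higher in the double knockout, 14.8% of the 115. Over all tested genes the ranges did not overlap in 5.94% that were lower and 6.31% that were higher, 12.3% in all.

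Among 25 tested kinases and adaptors that act on the gamma isozymes, 11 had a log2 fold change above 0 (median −0.02). By CPM, which is not scaled for transcript length, LAT2, a membrane adaptor of myeloid and B cells, was the highest. It stood at 481 ± 72.4 CPM in the double knockout and 425 ± 58.6 CPM in the JUN knockout (SD, n = 3 each). Next by CPM, at close levels, were the adaptor GRB2 and the phosphatase PTPN6. GRB2 was at 334 ± 14.6 CPM in the double knockout and 331 ± 6.92 CPM in the JUN knockout. PTPN6 was at 328 ± 10.1 CPM in the double knockout and 336 ± 34.0 CPM in the JUN knockout. The lowest p-values belonged to FGR, BLNK and SHC1, none of them called. FGR, a Src-family kinase, was at 0.925, 0.796 and 0.424 CPM in the double knockout and 0.404, 0.360 and 0.269 CPM in the JUN knockout (log2 fold change 1.03, SE 0.38, edgeR adjusted p = 0.838). BLNK, the adaptor that brings PLCG2 to the B-cell receptor, had a log2 fold change of −0.73 (edgeR adjusted p = 0.875), and the adaptor SHC1 one of −0.15 (edgeR adjusted p = 0.893).

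Of 16 tested genes of G protein subunits and their RGS regulators upstream of the beta isozymes, 8 had a log2 fold change above 0 (median −0.01). GNA15, a Gq-family alpha subunit of blood cells, averaged 308 ± 43.7 CPM in the double knockout and 287 ± 30.9 CPM in the JUN knockout. GNB1, a beta subunit, averaged 361 ± 8.35 CPM in the double knockout and 361 ± 12.0 CPM in the JUN knockout. GNAI2, an inhibitory alpha subunit, averaged 298 ± 21.6 CPM in the double knockout and 312 ± 20.0 CPM in the JUN knockout. The lowest p-values were those of GNB4 (log2 fold change 0.21, edgeR adjusted p = 0.901), GNAI3 (0.08) and GNG7 (0.24), none of them called.

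In the diacylglycerol arm, 11 of 20 tested genes had a log2 fold change above 0 (median 0.09). PRKCA, a conventional protein kinase C, was at 19.5, 19.3 and 19.6 CPM in the double knockout, against 16.4, 15.7 and 15.9 CPM in the JUN knockout. These ranges did not overlap, but edgeR did not call the gene (log2 fold change 0.29, SE 0.09, adjusted p = 0.789). UNC13D, a priming factor for granule release, had a log2 fold change of 0.19 (edgeR adjusted p = 0.854). DGKA, a diacylglycerol kinase, had one of −0.37 (edgeR adjusted p = 0.887). The highest gene by CPM was the diacylglycerol kinase DGKZ, at 211 ± 21.1 CPM in the double knockout and 224 ± 14.8 CPM in the JUN knockout. The Rap exchange factor RASGRP2 was at 155 ± 15.6 CPM in the double knockout and 144 ± 8.02 CPM in the JUN knockout, and PRKCB at 115 ± 18.5 CPM in the double knockout and 95.4 ± 12.5 CPM in the JUN knockout.

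In the inositol trisphosphate and calcium arm, 17 of 28 tested genes had a log2 fold change above 0 (median 0.03). CALM2, a calmodulin gene, was at 25.7, 33.4 and 22.8 CPM in the double knockout, against 40.3, 35.2 and 38.0 CPM in the JUN knockout (log2 fold change −0.47, SE 0.15, edgeR adjusted p = 0.789). CALM3, also a calmodulin gene, was at 375 ± 21.8 CPM in the double knockout and 398 ± 39.2 CPM in the JUN knockout. ORAI3, a store-operated calcium channel subunit, averaged 31.6 ± 2.84 CPM in the double knockout and 24.6 ± 3.25 CPM in the JUN knockout (log2 fold change 0.36, SE 0.13, edgeR adjusted p = 0.820). IMPA1, an inositol monophosphatase, had a log2 fold change of 0.26 (edgeR adjusted p = 0.854), and ATP2A2, the calcium pump of the endoplasmic reticulum, one of 0.06.

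Of 26 tested genes for the supply and turnover of phosphoinositides, 19 had a log2 fold change above 0 (median 0.04). The lipid phosphatase gene INPPL1 was at 164, 166 and 167 CPM in the double knockout, against 206, 186 and 180 CPM in the JUN knockout, without overlap (log2 fold change −0.20, SE 0.08, edgeR adjusted p = 0.854). Its relative INPP5D had the highest CPM of the list, at 540 ± 70.2 CPM in the double knockout and 491 ± 68.8 CPM in the JUN knockout. PIK3CD, a catalytic subunit of phosphoinositide 3-kinase, averaged 256 ± 5.73 CPM in the double knockout and 265 ± 12.6 CPM in the JUN knockout. PIK3CB (log2 fold change 0.15, edgeR adjusted p = 0.893) and PIK3R2 (0.17, edgeR adjusted p = 0.901) were the other genes with the lowest p-values.

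**Figure D5:**
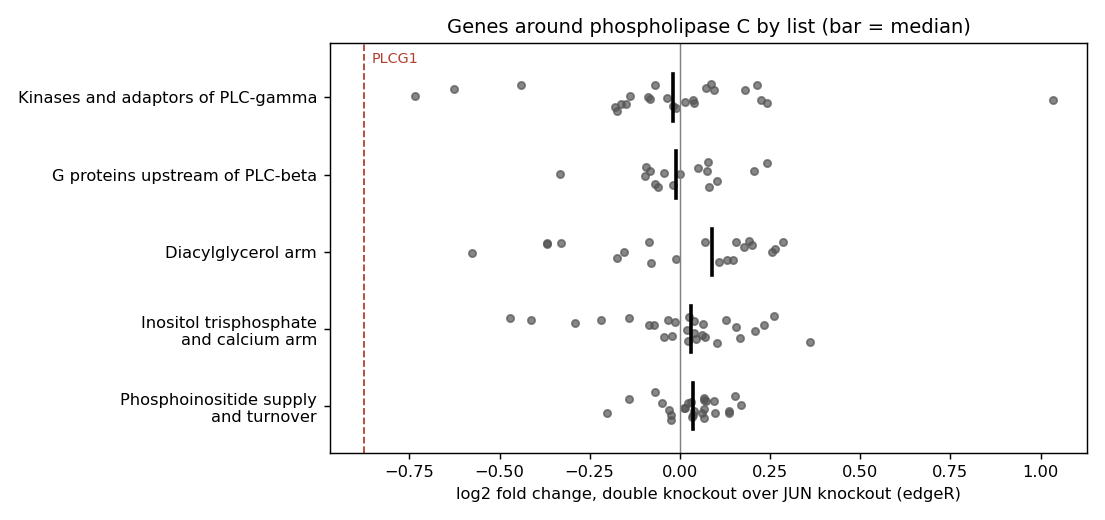
The log2 fold change (double knockout over JUN knockout) of each tested gene in the 5 lists, points for genes, a bar for the median of a list and a dashed line for PLCG1. List medians lie between −0.02 and 0.09, against 0.0032 for all tested genes, and PLCG1 lies at −0.88.

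Around PLCG1, 2 annotated neighbours within 200 kb were tested. ZHX3, on the opposite strand (41178448 to 41317672), overlaps the far end of the PLCG1 gene beyond the end of PLCG1-201 at 41175721. ZHX3 was at 22.8, 25.2 and 23.3 CPM in the double knockout and 21.1, 25.1 and 22.4 CPM in the JUN knockout. TOP1 (41028818 to 41124487, plus strand), which encodes DNA topoisomerase I, was at 199, 209 and 210 CPM in the double knockout and 191, 216 and 210 CPM in the JUN knockout. Both neighbours overlapped between the groups (log2 fold changes 0.06 and 0.00, edgeR adjusted p = 0.976 and 0.999). The antisense gene PLCG1-AS1 overlaps the start of PLCG1 and was not among the quantified transcripts. Whether the counting used strand was not given in the sources used here, so antisense reads in shared exons cannot be told apart from PLCG1 reads.

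The RefSeq promoter window of PLCG1 (250 bases before to 50 after the start) is shown because ATF3 and JUN are DNA-binding factors and PLCG1 was the member that differed most in size. It lies at chr20:41137293-41137592, plus strand, GRCh38.p14, inside the gene and downstream of the GENCODE starts of PLCG1-201 (41136960) and PLCG1-202 (41137237), so it does not cover the bases before those starts. The capitals mark GGGCGG or its reverse complement, the GC box.
PLCG1 promoter: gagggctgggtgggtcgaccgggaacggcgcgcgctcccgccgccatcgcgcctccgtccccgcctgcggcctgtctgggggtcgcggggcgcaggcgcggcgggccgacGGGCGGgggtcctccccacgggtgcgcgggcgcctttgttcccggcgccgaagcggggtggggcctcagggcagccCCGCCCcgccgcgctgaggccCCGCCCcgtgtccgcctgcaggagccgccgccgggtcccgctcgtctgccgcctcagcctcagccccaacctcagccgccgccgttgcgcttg
The window held GGGCGG 3 times. Both strands were searched for TGANTCA, the AP-1 motif, and TGACGTCA, the CRE motif, neither of which contains the other. Windows were found for 5 members (PLCB3, PLCD3, PLCG1, PLCG2 and PLCL2, the last with 2 windows), and 0 of them held TGANTCA, present in 7.71% of 35116 RefSeq promoter windows, or TGACGTCA, present in 1.85%. GGGCGG was present in 4 of these 5 members and in 45% of all windows. Letters absent from such a window say nothing of binding elsewhere.

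The genes whose log2 CPM followed that of PLCG1 most closely over the 6 libraries were ranked among 8804 protein-coding genes with a mean of at least 10 CPM. The highest Pearson correlations were those of PPP2R5D (0.997), RNF25 (0.995), ETAA1 (0.995), RPAIN (0.992) and MT1F (0.991). The lowest were those of CERS6 (−0.993), SLC33A1 (−0.988), YTHDF3 (−0.987), IMPDH2 (−0.985) and CRTAP (−0.985). Over 6 points that fall into 2 genotype groups, with so many genes ranked, these values describe the libraries and carry no test. Among the members, the correlation with PLCG1 was 0.70 for PLCB3, 0.65 for PLCD3, 0.48 for PLCD1, 0.13 for PLCL2, −0.09 for PLCG2 and −0.28 for PLCB2. All of these correlations use the PLCG1 values that chose the gene.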

How the data were processed

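Estimated counts (expected counts that need not be whole) and TPM per transcript were deposited by the authors for 177456 transcripts in each of 6 libraries, per the file headers. FastQC 0.11.9, Salmon 1.6.0 and hg38 are named per the submitters' processing notes. The library type setting, read layout and transcript set were not given in the sources used here. For transcripts over 1000 bases, effective length fell short of transcript length by a median of 250 bases, identically in all files.

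Transcripts were joined to GENCODE 29 (GRCh38) by identifier. Of them 167027 (94.1%) matched, in 35052 genes, and the rest held 3.58% to 3.71% of a library's reads and were left out, so a gene with unmatched copies may be counted in part. Per gene, estimated counts were added up and rounded. The totals of 26146998 to 29567970 limit precision for genes with few reads. The test was edgeR 4.0.16 (R 4.3.3) quasi-likelihood, two-sided, with filterByExpr, TMM, robust dispersion and Benjamini-Hochberg adjustment at 0.05 over 12954 genes. The SE is the log2 fold change over the square root of F. The edgeR fit was tested on simulated data. Transcript classes are those of GENCODE.

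The members and lists were chosen with earlier results of these data known. Named genes were all members and the further phospholipase C genes with a mean of at least 1 CPM. In each list, the 3 with the highest mean CPM and the 3 with the lowest p were named. The rule also named the 5 most and 5 least correlated with PLCG1, and tested neighbours within 200 kb. Some genes that this rule names are not reported here. In the files' names, libraries that share a number also share a clone code across groups, so the numbers were taken as pairs. Within pairs 1, 2 and 3, the correlation of deviations from group means was 0.328, 0.0958 and 0.412. Between libraries of different number it was −0.413 to 0.112. The 0.112, of double knockout replicate 2 with JUN knockout replicate 1, exceeded that of pair 2. These correlations thus do not single out pair 2, which rests on the clone code alone. Alternatives were DESeq2 1.42.0, limma-voom (limma 3.58.1, added after seeing the data), RLE scaling, other low-count filters, coding transcripts only, a transcript length offset, the replicate block and leaving out each library.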

Additional observations from a re-analysis of the deposited data

How the results depend on the processing

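Against 0 genes called by edgeR, DESeq2 called 71, limma-voom 4 and edgeR without a low-count filter 1, while every other setting run called 0. Of the phospholipase C members, DESeq2 called 1, PLCG1 (log2 fold change −0.88, adjusted p = 2.89e-06), and every other setting 0. The log2 fold change of PLCG1 was −0.88 under RLE scaling and limma-voom, −0.84 on coding transcripts and −1.15 with the transcript length offset. Leaving out 1 library gave −0.99 (double knockout replicate 3 out) to −0.80 (replicate 1 of that group out). With the replicate block it was −0.88 (edgeR adjusted p = 0.172), and the block changed no call. Members of the 5 lists called stayed at 0 under every setting run. The difference in retained-intron share of PLCG1, −1.91 percentage points, was −1.65 as a share of TPM (where the groups overlapped), −4.23 with all classes other than coding and −7.31 on the TPM of PLCG1-201 and retained-intron transcripts (chosen after seeing the data). Leaving out 1 library gave −2.55 to −1.24, the last with double knockout replicate 2 out. On coding transcripts the levels were 5.59 TPM for PLCG1, 17.2 for PLCG2, 6.66 for PLCB2, 1.28 for PLCD3 and 0.0789 for PLCD1. Directions turned in 4 members, none of them called. PLCG2 was 0.0063 on coding transcripts and PLCB2 −0.11 with the length offset, where PLCD1 was 0.28. PLCB3 kept its direction but moved from −0.11 to −0.57 with the length offset (edgeR adjusted p = 0.769). Leaving out 1 library gave −0.092 to 0.11 for PLCG2 (above 0 with JUN knockout replicate 1 or double knockout replicate 3 out), −0.032 to 0.27 for PLCB2 (below 0 with double knockout replicate 2 out) and −0.70 to 0.31 for PLCL2 (above 0 at 0.26 with double knockout replicate 2 out, and at 0.31 with JUN knockout replicate 1 out). The cause was not tested. List medians were close to 0 and turned in 3 lists, where leaving out 1 library gave −0.10 to 0.04 for the kinases and adaptors, −0.02 to 0.03 for the G proteins and RGS genes and −0.04 to 0.10 for the calcium arm. With few reads, PLCD1, PLCB4 and PLCB1 could not show a difference at this depth.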
